A study of Mus musculus with 8 samples.

Results

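Small nucleolar RNA host genes are the 10 genes Gas5, Snhg1, Snhg3, Snhg5, Snhg6, Snhg8, Snhg12, Snhg15, Snhg17 and Snhg20, chosen by name among the 55401 genes of the deposited count table. RNA immunoprecipitation (RIP) collects the RNA that is carried along when a protein is pulled from a lysate with an antibody. The libraries came from C57BL/6 mouse tissue labelled hippocampus and formed 3 groups: 3 libraries from RIP with an antibody against the kinase subunit CaMKIIβ, 3 from RIP with IgG (immunoglobulin, the antibody control) and 2 from Input RNA. The labels give no age, sex, treatment or origin of the replicates, so p-values measure the spread between these libraries, which may be technical. Libraries held 17273957 to 28138289 counts, and all values below are raw counts per gene or values computed from them.

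A host gene is transcribed as a long precursor, and small nucleolar RNAs (snoRNAs) are cut out of its introns. The snoRNAs then guide the chemical modification of ribosomal and other RNAs, or their processing, in the nucleolus, while the spliced exons leave as a noncoding transcript. Many such transcripts, Gas5 among the best studied, begin with a pyrimidine tract like that of ribosomal protein mRNAs, and are degraded by nonsense-mediated decay when ribosomes read their short open reading frames. The level of the spliced host transcript is therefore not a measure of the snoRNAs made from it.

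The bases around the RefSeq start sites (GRCm38.p6) are shown because this tract is the known shared feature of the family. Each stretch holds the 25 bases before the start and the 25 bases from the start on, 5′ to 3′ on the transcript strand. Capitals mark the longest run of C and T within 10 bases of the start. Runs were cut at the edge of this window, and those of Snhg1 and Snhg5 go on past it in small letters. For Gas5 and Snhg17, which have 2 RefSeq starts each, the downstream one is printed, and the upstream one had no run longer than 3.
Gas5 at chr1:161035141-161035190, plus strand: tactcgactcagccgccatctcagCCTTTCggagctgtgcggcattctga
Snhg1 at chr19:8723462-8723511, plus strand: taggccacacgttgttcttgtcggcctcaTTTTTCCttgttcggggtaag
Snhg8 at chr3:123508312-123508361, minus strand: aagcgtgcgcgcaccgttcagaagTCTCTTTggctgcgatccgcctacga
Snhg12 at chr4:132308653-132308702, plus strand: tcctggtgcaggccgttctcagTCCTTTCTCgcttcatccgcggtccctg
Snhg17 at chr2:158361485-158361534, minus strand: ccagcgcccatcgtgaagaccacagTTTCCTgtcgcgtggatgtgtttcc
Snhg3 at chr4:132353662-132353711, minus strand: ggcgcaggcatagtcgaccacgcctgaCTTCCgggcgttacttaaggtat
Snhg5 at chr9:88522873-88522922, minus strand: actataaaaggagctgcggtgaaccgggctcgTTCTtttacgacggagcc
Snhg15 at chr11:6528736-6528785, minus strand: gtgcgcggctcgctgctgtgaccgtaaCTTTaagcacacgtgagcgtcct
Snhg20 at chr11:117076758-117076807, plus strand: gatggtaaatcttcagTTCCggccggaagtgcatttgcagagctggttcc
Inside the window the longest run was 9 bases in Snhg12, 7 in Snhg1 (cut) and Snhg8, and 6 at the printed starts of Gas5 and Snhg17. The run held the start base itself in Gas5, Snhg8, Snhg12 and Snhg17, and began 4 bases after it in Snhg1. Over the 11 start sites of the 9 host genes in the RefSeq table, 5 had a run of at least 6 within 10 bases, against 21.02% of the 32851 promoters of the table. Runs were cut in the same way in both, and Snhg5 was not among the 5, with 4 bases of its run in the window. The start base lay in a run of at least 6, here not cut, at 4 of the 11, against 7.25% of all promoters. In the windows from 250 bases before to 50 bases after the start, the letters TATAAA stood on either strand in 4 of 11 host windows and 13.6% of all windows. Searched in the same way, CCGGAA (the core of ETS factor motifs) stood in 3 of 11 and 14.9%, TGACGTCA (the cyclic AMP response element) in 2 of 11 and 1.79%, and CACGTG (the E-box) in 1 of 11 and 7.15%. These are matches of letters. Snhg6 is not in the promoter table used here.

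The gene models decide what a count of a host gene contains. The table names genes by Ensembl identifiers, and symbols were joined from RefSeq by position on GRCm38. Exons of Snhg1 (ENSMUSG00000108414.1, chr19:8723475-8726443, plus strand, 2969 exon bases), Snhg8 (ENSMUSG00000104960.1, chr3:123507552-123508404, minus strand, 853 exon bases) and Snhg12 (ENSMUSG00000086290.9, chr4:132308623-132311024, plus strand, 2402 exon bases) covered 100% of the gene span. In these genes the merged exons of all isoforms left no intron, so reads from spliced and unspliced RNA were counted together. Exons covered 91.3% of the span of Gas5 (ENSMUSG00000053332.13, chr1:161034422-161038539, plus strand, 3760 exon bases). The share was 94.8% for Snhg20 (ENSMUSG00000086859.4, chr11:117076008-117078955, plus strand, 2795 exon bases), 89.5% for Snhg17 (ENSMUSG00000085385.7, chr2:158353700-158361580, minus strand, 7052 exon bases) and 83.2% for Snhg15 (ENSMUSG00000085156.8, chr11:6525591-6528779, minus strand, 2652 exon bases). Snhg6 (ENSMUSG00000098234.7, chr1:9941959-9944118, minus strand, 1146 exon bases) was the most intron-rich of the compact models, with 53.1%. Snhg5 (ENSMUSG00000097195.10, chr9:88495268-88523562, minus strand, 3634 exon bases) had a long model of which the RefSeq gene held 50.8% of the exon bases, so its counts may include reads from outside the RefSeq gene. Snhg3 (ENSMUSG00000085241.7, chr4:132348014-132353686, minus strand, 986 exon bases) shared 86.3% of its exon bases with other genes.

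**Figure D1:**
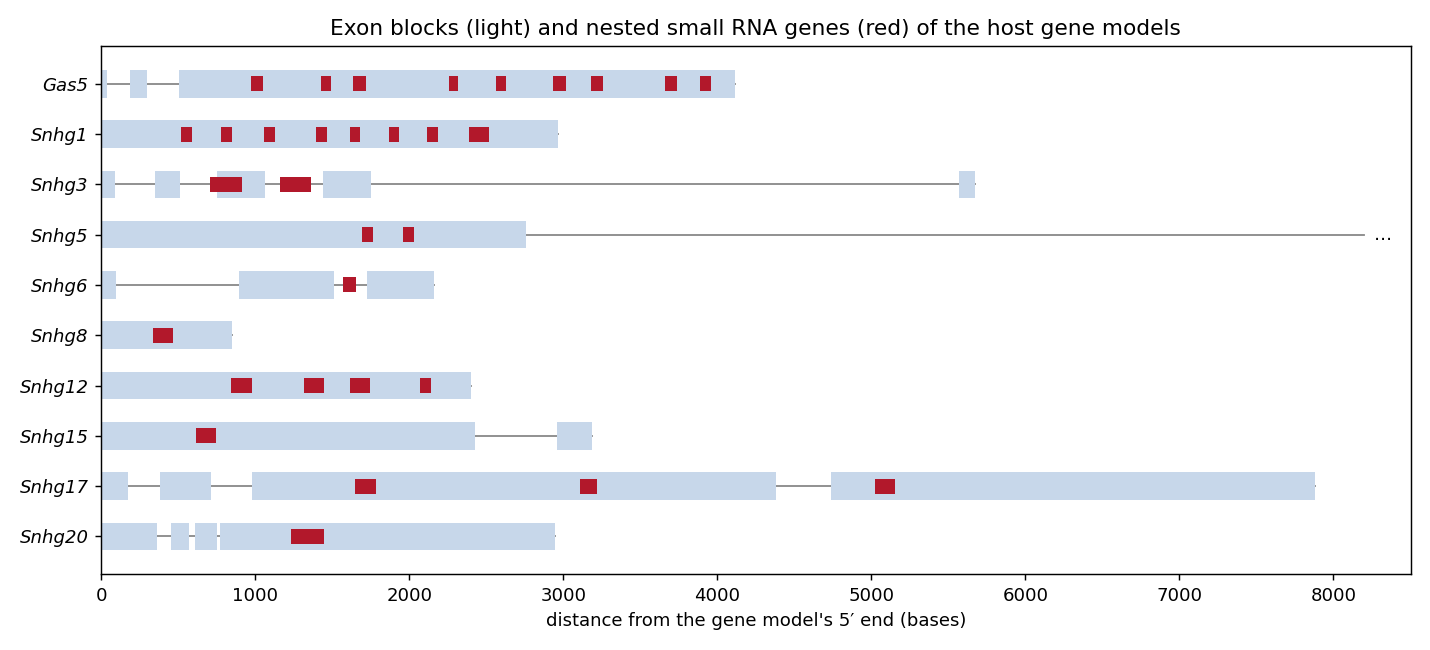
Exon blocks (light) and nested small RNA genes on the same strand (red) of the 10 host gene models, drawn to scale from the 5′ end of each model (x axis, bases). Small genes that overlap one another merge in the drawing, and the Snhg5 model runs on past the right edge. Nearly all red boxes lie on light exon blocks.

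The snoRNAs themselves were nearly invisible in these counts. The 10 host genes contained 36 small genes on the same strand, 60 to 205 bases long. Of these, 25 were matched to a RefSeq snoRNA, and 9 had no RefSeq match by the position rule used here. Gas5 held 10 of them, among them Snord47, and Snhg1 held 8, among them Snord22. Snhg12 held 5, among them Snora44 and Snord99, and Snhg17 held 4. Snhg8 held Snora24, Snhg3 held Snora73a and Snora73b, and Snhg6 held Snord87. Of the 36, 33 lay wholly inside exons of the host model and had 0 counts in all 8 libraries. Of the other 3, Snora73a lay partly in exons and Snora73b in an intron of Snhg3, both with 0 counts. Only Snord87, which lay in an intron of Snhg6, was counted. It had 8, 0 and 0 counts in CaMKIIβ RIP, 3, 4 and 0 in IgG RIP and 1 and 7 in Input.

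All genes of the table that were matched to a RefSeq snoRNA were sorted by overlap with exons of any other genes, on either strand. The nested genes above were sorted by the exons of their host alone. None of the 124 that lay wholly in exons of other genes had a count, against 474 of the 971 (48.8%) that lay in no exon of another gene. Of those partly in such exons, 20 of 32 (62.5%) had a count. A read that touches 2 genes is left out by the default setting of featureCounts, the counting tool named in the submitters' processing notes, but the setting used is not given in the sources used here. A count of 0 for a nested snoRNA therefore does not show that the RNA was missing.

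Snhg20 also carried Mir6516, a microRNA hairpin gene that lay wholly in its exons and had 0 counts. Its mature forms in RefSeq are shown with the seed, bases 2 to 8, in capitals, because they are the only named small RNA of this host in the annotation used.
mmu-miR-6516-5p: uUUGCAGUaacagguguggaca
mmu-miR-6516-3p: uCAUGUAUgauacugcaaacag

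Host gene RNA was a small part of every library and was larger in Input than in either RIP. The 10 genes together made up 46.5, 27.7 and 52.9 CPM (the usual scaling of counts to a fixed library total) in CaMKIIβ RIP replicates 1 to 3, and 47.6, 52.0 and 48.5 in IgG RIP. In Input the sums were 85.6 and 102 CPM. Both Input libraries lay above all 6 RIP libraries, and CaMKIIβ RIP replicate 2 had the lowest sum. With the correction for library composition explained below (TMM), the sums were 49.0, 27.9 and 55.4 CPM in CaMKIIβ RIP replicates 1 to 3. They were 49.1, 53.5 and 51.2 CPM in IgG RIP and 76.6 and 91.6 CPM in Input. Both Input libraries still lay above all 6 RIP libraries, with a smaller gap. In bulk RNA, fewer cells of a type and less RNA per cell cannot be told apart, and scaled counts do not show the total RNA that each antibody recovered. Gas5 alone gave 34.6, 17.4 and 29.6% of the sum in CaMKIIβ RIP, 44.7, 39.6 and 37.9% in IgG RIP and 39.7 and 34.5% in Input. CaMKIIβ RIP replicate 2 stood apart over all genes. Of genes predicted to have 20 to 50 counts in it, 28.2% had 0 counts, against at most 1.74% in any other library. Predictions for each library came from the other RIP libraries, with CaMKIIβ RIP replicate 2 always left out. Host gene fold changes of CaMKIIβ RIP are given below with and without CaMKIIβ RIP replicate 2, while group means of levels include it.

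**Figure D2:**
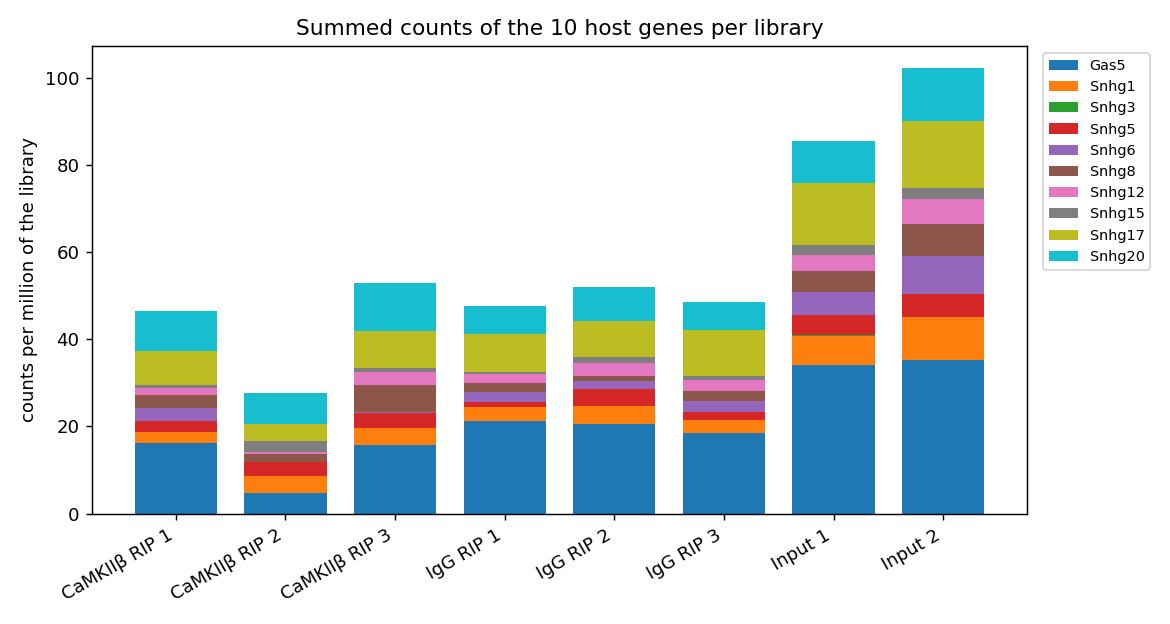
Summed counts of the 10 host genes as CPM of the library total (y axis), with 1 bar per library and 1 colour per gene. The CaMKIIβ RIP bars reach 46.5, 27.7 and 52.9, the IgG RIP bars 47.6 to 52.0 and the Input bars 85.6 and 102.

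Levels of the single genes are given per library as CPM scaled with TMM (trimmed mean of M values, a correction for library composition) over all 8 libraries. Gas5, a growth-arrest transcript and the strongest host gene by count, had 17.0, 4.84 and 16.4 CPM in CaMKIIβ RIP, 22.0, 21.2 and 19.4 CPM in IgG RIP and 30.4 and 31.6 CPM in Input. The 3 groups did not overlap: Input was highest and CaMKIIβ RIP lowest, with replicate 2 far below the other 2. Snhg17, a host of H/ACA snoRNAs, had 8.38, 4.02 and 8.71 CPM in CaMKIIβ RIP, 8.78, 8.44 and 11.04 CPM in IgG RIP and 12.7 and 13.8 CPM in Input. Input again lay above both RIP groups, which overlapped each other. Snhg20 had 9.59, 7.11 and 11.6 CPM in CaMKIIβ RIP, 6.70, 8.16 and 6.72 CPM in IgG RIP and 8.66 and 10.8 CPM in Input. Its CaMKIIβ RIP libraries spanned the Input values, while all 3 IgG RIP libraries lay below Input.

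Snhg1, a host of box C/D snoRNAs, had 2.79, 3.85 and 4.06 CPM in CaMKIIβ RIP, 3.17, 4.20 and 3.15 CPM in IgG RIP and 6.15 and 8.85 CPM in Input. The RIP groups covered the same range, below both Input libraries. Snhg8, the host of Snora24, had 3.003, 1.87 and 6.51 CPM in CaMKIIβ RIP, 2.08, 1.12 and 2.48 CPM in IgG RIP and 4.28 and 6.50 CPM in Input. CaMKIIβ RIP replicate 3 reached the higher Input value, and all IgG RIP libraries lay below Input. Snhg12 had 1.63, 0.466 and 3.18 CPM in CaMKIIβ RIP, 2.22, 2.94 and 2.55 CPM in IgG RIP and 3.38 and 5.16 CPM in Input. CaMKIIβ RIP replicate 2 was the lowest library and Input the highest group.

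Snhg5 had 2.67, 3.26 and 3.62 CPM in CaMKIIβ RIP, 1.13, 4.10 and 2.03 CPM in IgG RIP and 4.18 and 4.57 CPM in Input. Input lay above every RIP library, the nearest being IgG RIP replicate 2. Snhg15 had 0.792, 2.45 and 1.08 CPM in CaMKIIβ RIP, 0.543, 1.49 and 1.13 CPM in IgG RIP and 2.01 and 2.31 CPM in Input. Here CaMKIIβ RIP replicate 2 was the highest of all 8 libraries, unlike in Gas5, Snhg12 and Snhg17, where it was the lowest.

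Snhg6, the host of Snord87, had 3.21, 0 and 0.245 CPM in CaMKIIβ RIP, 2.44, 1.87 and 2.704 CPM in IgG RIP and 4.74 and 7.97 CPM in Input. The CaMKIIβ RIP libraries disagreed with each other, with 77, 0 and 5 counts. A count of 0 in replicate 2 allows up to 0.174 CPM of the library total, for counting error only. Snhg6 shares 127 exon bases (11.1%) with Mcmdc2 on the other strand, a gene of the MCM family, and Mcmdc2 had 55, 0 and 56 counts in CaMKIIβ RIP, 62, 52 and 65 in IgG RIP and 128 and 127 in Input. Both genes were thus at 0 in CaMKIIβ RIP replicate 2, and Snhg6 alone was low in replicate 3. Without a stated strand setting, reads of their shared bases cannot be assigned to either gene.

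Snhg3 was almost uncounted, with 0, 0 and 0 counts in CaMKIIβ RIP, 1, 0 and 0 in IgG RIP and 1 and 0 in Input, and it was not tested. Of its exon bases, 135 are shared with Rcc1, the overlapping gene of a chromatin regulator on the same strand, and 705 with the unnamed gene ENSMUSG00000091021.1 on the other strand. That antisense gene had 0, 0 and 17 counts in CaMKIIβ RIP, 0, 0 and 4 in IgG RIP and 10 and 25 in Input, and Rcc1 had 61 to 182 counts in CaMKIIβ RIP, 133 to 193 in IgG RIP and 139 and 177 in Input. The level of Snhg3 itself was not measurable in this table.

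**Figure D3:**
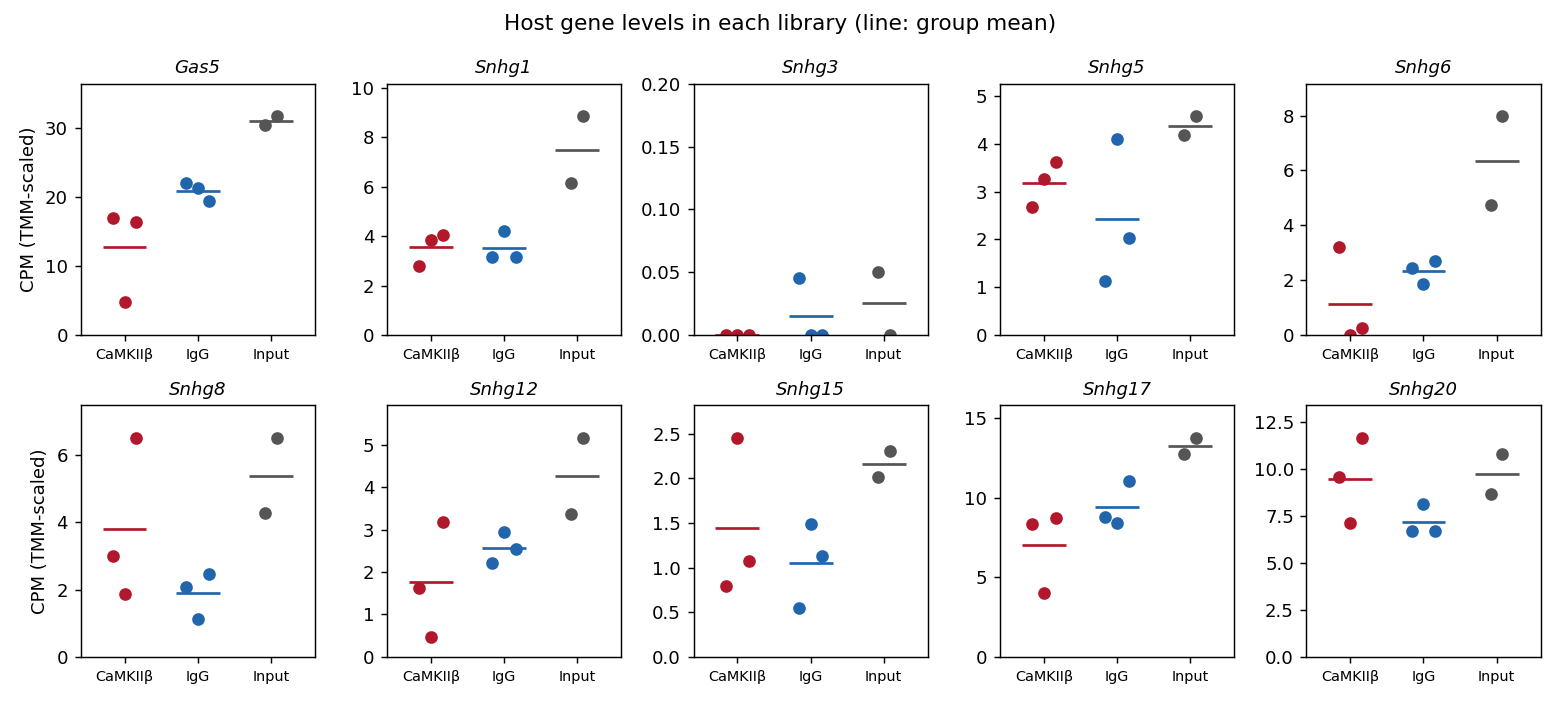
TMM-scaled CPM (y axis, from 0, a scale of its own for each gene) of the 10 host genes in the 3 CaMKIIβ RIP, 3 IgG RIP and 2 Input libraries, with 1 point per library and a line at the group mean. Gas5 separates all 3 groups, and Snhg20 in CaMKIIβ RIP (7.11 to 11.6) spans its Input values (8.66 and 10.8).

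Per length of exon the order of the genes by group mean changed between groups. Values here are means of CPM of the library total per kilobase of exon ± SD. The length is that of the merged exons of all isoforms, not of a spliced transcript. Other genes share 17.8% of these bases in Gas5, 20.9% in Snhg1, 19.6% in Snhg12 and 15.2% in Snhg8, and reads there may be uncounted. The order of genes is therefore not a measure of transcript abundance. In CaMKIIβ RIP (n = 3) Snhg8 came first with 4.26 ± 2.68, followed by Snhg20 with 3.25 ± 0.725 and Gas5 with 3.24 ± 1.70, and these 3 did not differ beyond their spread. In CaMKIIβ RIP replicates 1 and 3, Gas5 had 4.28 and 4.16 and Snhg20 3.25 and 3.98. In replicate 2 they had 1.28 and 2.53, so the order of Gas5 and Snhg20 rested on that library. Snhg8 had 3.34, 2.17 and 7.28 in replicates 1 to 3, so it came first in replicate 3 alone. In IgG RIP (n = 3) Gas5 came first with 5.35 ± 0.408, and its lowest library lay above every library of Snhg20 (2.48 ± 0.311), Snhg8 (2.13 ± 0.765) and Snhg6 (1.96 ± 0.339). Snhg8 overlapped both Snhg20 and Snhg6, and Snhg20 lay just above Snhg6 in all libraries. In Input (n = 2) Gas5 led with 9.21 ± 0.249, above Snhg8 with 7.06 ± 2.05 and Snhg6 with 6.19 ± 2.23, which overlapped, and Snhg20 with 3.89 ± 0.608. Snhg1, Snhg17, Snhg12, Snhg5 and Snhg15 lay below these, at 0.529 to 1.16 in CaMKIIβ RIP, 0.383 to 1.28 in IgG RIP and 0.910 to 2.82 in Input. Snhg6 in CaMKIIβ RIP, at 0.953 ± 1.48, lay among them. Snhg15 had the lowest mean of the 9 genes other than Snhg3 in all 3 groups. With TMM-scaled totals, Snhg20 and Gas5, and Snhg17 and Snhg6, changed places in CaMKIIβ RIP, and the ranks in the other groups were equal.

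CaMKIIβ RIP against IgG RIP asks, for the study's stated subject of noncoding RNAs bound by CaMKIIβ, which host transcripts came down with the kinase antibody beyond the control antibody. None of the 9 host genes tested passed an adjusted p of 0.05 with edgeR's quasi-likelihood test, and 0% of the 20566 genes tested did. At an unadjusted p under 0.05, 0 host genes and 721 of all genes were found by edgeR. Over all genes, DESeq2 and limma-voom also called 0, with 907 and 780 unadjusted p under 0.05. The highest value was that of Snhg8, with a log2 fold change of 1.002 ± 0.58 (SE) and a 95% interval from -0.30 to 2.31. The other positive values were 0.45 ± 0.85 for Snhg15, 0.40 ± 0.55 for Snhg5, 0.40 ± 0.27 for Snhg20 and 0.03 ± 0.39 for Snhg1. Negative values were -0.41 ± 0.32 for Snhg17, -0.54 ± 0.69 for Snhg12, -0.70 ± 0.38 for Gas5 and -0.998 ± 1.22 for Snhg6. The adjusted p of the 9 ran between 0.982 and 0.998, and their median of 0.03 lay beside one of -0.02 over all genes. The median ran between -0.20 and 0.18 over the 18 alternatives, so it has no settled sign.

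These intervals were wide. That of Gas5 ran from -1.55 to 0.14, that of Snhg17 from -1.13 to 0.31 and that of Snhg20 from -0.20 to 0.997. Gas5 was the only host gene whose libraries did not overlap between the antibodies, lower in CaMKIIβ RIP, as were 6.93% of all genes. Without CaMKIIβ RIP replicate 2, the log2 fold change was -0.32 ± 0.16 for Gas5, -0.14 ± 0.22 for Snhg17 and -0.10 ± 0.44 for Snhg12, and for Snhg6 it was -0.42 ± 0.72. Snhg15 turned to -0.18 ± 0.71 and Snhg1 to -0.04 ± 0.36. Snhg8 stood at 1.31 ± 0.45, with an adjusted p of 0.837, Snhg20 at 0.56 ± 0.23 and Snhg5 at 0.38 ± 0.51.

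CaMKIIβ RIP against Input asks which transcripts differ between the kinase RIP and the RNA before it. Again 0 of 9 host genes passed the adjusted p of 0.05 with edgeR, where 8.45% of 22095 genes did, 5.06% higher and 3.40% lower. At an unadjusted p under 0.05, 3 host genes (Gas5, Snhg1 and Snhg17) and 22.6% of all genes were found. All 9 log2 fold changes were below 0, with a median of -0.96 against -0.12 over all genes. Gas5 stood at -1.33 ± 0.46 (95% interval -2.41 to -0.25, adjusted p = 0.136), Snhg1 at -1.12 ± 0.39 (adjusted p = 0.137) and Snhg17 at -0.96 ± 0.37 (adjusted p = 0.175). The lowest value, -2.48 ± 1.38 for Snhg6, had an interval from -5.71 to 0.74. Snhg12 had -1.32 ± 0.79, Snhg15 -0.63 ± 0.83, Snhg8 -0.56 ± 0.58 and Snhg5 -0.50 ± 0.44. Snhg20 was nearest to 0, at -0.09 ± 0.31 (95% interval -0.81 to 0.63).

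Libraries did not overlap for 6 of the 9 genes, all lower in CaMKIIβ RIP, against 28.5% of all genes that were apart and lower. These 6 were Gas5, Snhg1, Snhg5, Snhg6, Snhg12 and Snhg17. Without CaMKIIβ RIP replicate 2, Gas5 passed the threshold, with a log2 fold change of -0.88 ± 0.14 and an adjusted p of 0.00923, and Snhg20 turned to 0.13 ± 0.22. The other values without it, none past the threshold, were -1.84 ± 0.90 for Snhg6, -1.20 ± 0.52 for Snhg15, -1.12 ± 0.33 for Snhg1, -0.82 ± 0.46 for Snhg12, -0.62 ± 0.19 for Snhg17, -0.47 ± 0.33 for Snhg5 and -0.18 ± 0.44 for Snhg8. Their median with Gas5 and Snhg20 was then -0.82. Gas5 also passed with DESeq2 (-1.29, adjusted p = 0.0331), with limma-voom (-1.45, adjusted p = 0.0436) and in 1 fit of all 8 libraries (-1.33, adjusted p = 0.0326).

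IgG RIP against Input compares the control RIP with RNA that was not immunoprecipitated. With edgeR, 5 of the 9 host genes tested fell in IgG RIP, and 0 rose, where 38.7% of 22342 genes passed, 18.7% lower and 20.1% higher. Snhg8 fell most, by 1.49 ± 0.32 on the log2 scale (adjusted p = 0.00134). Snhg6 fell by 1.43 ± 0.28 (adjusted p = 0.000543) and Snhg1 fell by 1.09 ± 0.24 (adjusted p = 0.00135). Gas5 fell by 0.56 ± 0.11 (adjusted p = 0.000541) and Snhg17 fell by 0.48 ± 0.16 (adjusted p = 0.0278).

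The remaining 4 host genes had log2 fold changes of -1.02 ± 0.44 (Snhg15), -0.85 ± 0.38 (Snhg5), -0.72 ± 0.28 (Snhg12) and -0.43 ± 0.18 (Snhg20), with adjusted p between 0.0543 and 0.0929. The median of the 9 was -0.85, against -0.02 over all genes. For all 9 the IgG RIP libraries lay below both Input libraries, as they did for 30.8% of all genes. Among long noncoding RNA genes, the class that the host genes belong to, 159 of 1324 (12.01%) were lower.

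The calls depended on single libraries and on which libraries shared a fit. Without Input replicate 2 only Gas5 passed (-0.51, adjusted p = 0.0162), without IgG RIP replicate 2 all but Snhg17 did, and in 1 fit of all 8 libraries 0 did, since the spread estimate then included the CaMKIIβ RIP libraries (common coefficient of variation 0.377, against 0.115 in the fit of IgG RIP and Input alone). All 9 values stayed below 0 under the 17 alternatives run. Removing a trend on exon length left 5 calls.

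**Figure D4:**
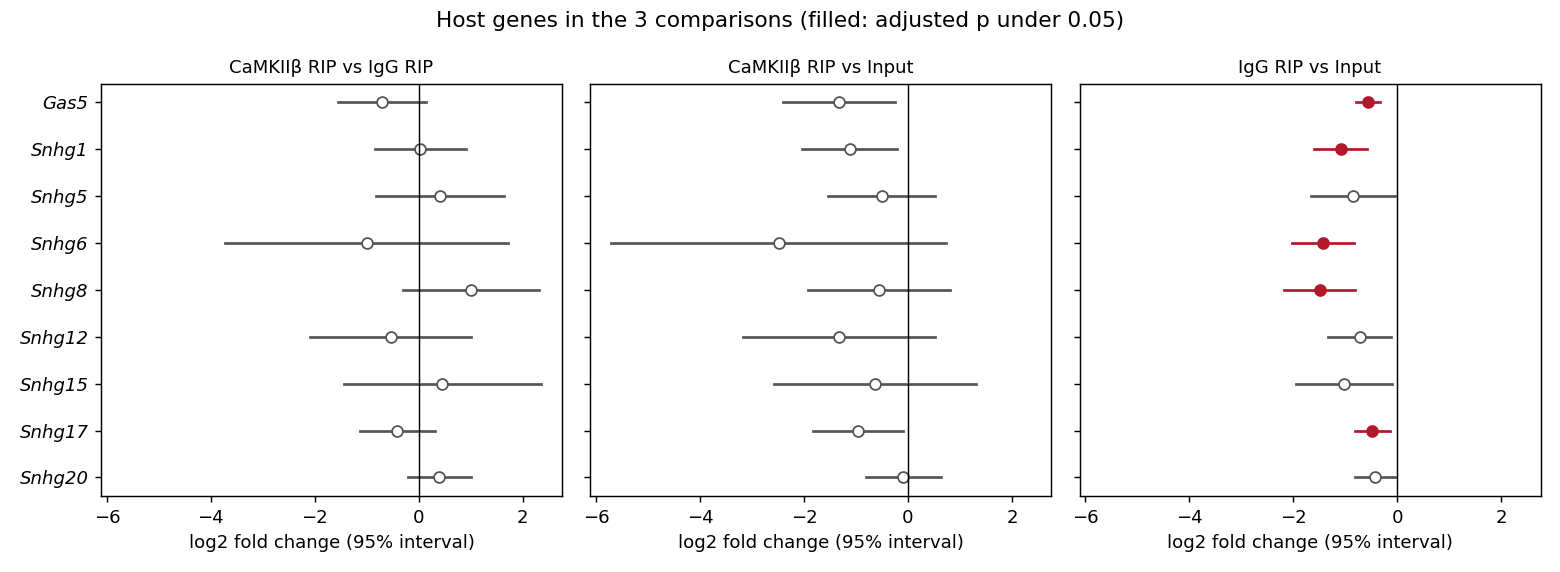
Log2 fold changes (x axis, points) with 95% intervals (lines) of the 9 host genes tested, with 1 panel for each of the 3 comparisons. Filled red points mark an adjusted p under 0.05: 0 genes for CaMKIIβ RIP over either other group, and 5 for IgG RIP over Input. The comparisons with Input share the Input libraries.

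The related gene lists are read against all genes tested: in IgG RIP against Input 18.7% fell and 20.1% rose, with a median of -0.02, and in CaMKIIβ RIP against Input 3.40% fell and 5.06% rose, with a median of -0.12. The list calls of CaMKIIβ RIP against Input rest on few libraries: without CaMKIIβ RIP replicate 1 none of the 21439 genes tested passed with edgeR, so every call of these lists was lost, although 4607 genes had an unadjusted p under 0.05. Without Input replicate 2 the calls were 1 noncoding host, 1 protein-coding host and 1 translation gene, with 0 on the other lists, and without Input replicate 1 the snoRNA particle list had 0. Without CaMKIIβ RIP replicate 3 the calls were 2 protein-coding hosts, 1 particle gene and 2 decay genes, and without CaMKIIβ RIP replicate 2 they were 7 translation genes, 5 particle genes and 3 decay genes.

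Other noncoding host genes were compared as a list of 9 named genes, of which 8 were tested. In IgG RIP against Input 5 fell, where 18.7% of all genes did, and 0 rose, with a median log2 fold change of -0.95. Without Input replicate 2, 1 fell. Snhg11, a neuronal host gene, had the smallest p, at -0.89 ± 0.06 (adjusted p = 8.46e-09, 729 ± 37.1 CPM in IgG RIP and 1351 ± 47.8 CPM in Input; SD, n = 3 and 2). Snhg4 fell by 1.31 ± 0.32 and Epb41l4aos fell by 1.48 ± 0.42. Snhg14, the imprinted host of brain snoRNA clusters, fell by 0.29 ± 0.08. Dancr, at -0.78 ± 0.41, and Snhg10, at -1.01 ± 0.43, did not pass. In CaMKIIβ RIP against Input only Snhg11 passed, and it fell by 1.10 ± 0.20 (adjusted p = 0.0198), while Snhg14 was at -0.28 ± 0.19 and Zfas1 at -0.05 ± 0.77.

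Protein-coding host genes, in which the snoRNA sits in an intron of an mRNA, moved in both directions. Of 17 tested in IgG RIP against Input, 8 fell and 4 rose, against 18.7% and 20.1% of all genes, with a median of -0.16. Eef2, the translation elongation factor, rose by 0.94 ± 0.06 (adjusted p = 6.75e-09), while Tpt1 fell by 0.84 ± 0.07, the initiation factor helicase Eif4a2 fell by 0.85 ± 0.08 and Taf1d fell by 0.96 ± 0.13. Eif4g2 (-0.16 ± 0.06) and the importin Ipo7 (-0.06 ± 0.08) did not pass. With the CaMKIIβ antibody, against Input, 3 fell and 1 rose: Eef2 rose by 0.94 ± 0.14, Tpt1 fell by 0.74 ± 0.16, Taf1d fell by 1.37 ± 0.31 and the snoRNP core protein Nop56 fell by 0.67 ± 0.16. Atp5b (0.31 ± 0.15) and Eif4g2 (-0.41 ± 0.14) did not pass.

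Translation genes with a terminal pyrimidine tract, the mRNA class named for the tract described above, showed no common direction. Of 19 tested in IgG RIP against Input, 7 rose and 6 fell, against 20.1% and 18.7% of all genes, with a median of -0.03. Besides Eef2 and Tpt1, which are also on the list of protein-coding hosts, the poly(A)-binding protein gene Pabpc1 rose by 0.59 ± 0.06 and Hnrnpa1 fell by 0.63 ± 0.07. Naca (-0.20 ± 0.08) and Rack1 (-0.16 ± 0.08) did not pass. With the CaMKIIβ antibody, against Input, 1 rose and 3 fell, among them Npm1, which fell by 1.06 ± 0.22, and Eif3e, which fell by 0.83 ± 0.16. Eif4b (0.16 ± 0.12) and Pabpc1 (0.23 ± 0.22) did not pass there.

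Genes for proteins of the snoRNA particles fell more often than they rose. Of 17 tested in IgG RIP against Input, 10 fell and 1 rose, against 18.7% and 20.1% of all genes, with a median of -0.47. Without Input replicate 1 or without Input replicate 2, 5 fell and 1 rose. Nop58, a box C/D core protein, fell by 0.87 ± 0.09, Nop10, an H/ACA core protein, fell by 1.04 ± 0.19, and Nop56 fell by 0.50 ± 0.09. Ruvbl2, an assembly factor, rose by 0.61 ± 0.12, and the methyltransferase Fbl (0.12 ± 0.13) and Ruvbl1 (0.26 ± 0.15) did not pass. With the CaMKIIβ antibody, against Input, 2 fell and 0 rose: Nop58 fell by 0.86 ± 0.17 and Nop56 fell by 0.67 ± 0.16. Snu13 (-0.59 ± 0.33) and Ruvbl2 (0.57 ± 0.18) did not pass.

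Genes of nonsense-mediated decay, the pathway known to degrade Gas5 and like transcripts, were split. Of 14 tested in IgG RIP against Input, 6 rose and 5 fell, against 20.1% and 18.7% of all genes, with a median of 0.09. Without Input replicate 2, 4 rose and 2 fell. The helicase gene Upf1 rose by 0.89 ± 0.08, Smg8 rose by 0.90 ± 0.14 and Smg9 rose by 0.70 ± 0.12, while Upf3b fell by 1.19 ± 0.15. Smg1 (-0.01 ± 0.06) did not pass. In CaMKIIβ RIP against Input only Upf1 passed, and it rose by 0.97 ± 0.15, while Smg1 was at -0.24 ± 0.10.

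Between CaMKIIβ RIP and IgG RIP, 0 members of any of these 5 lists passed with edgeR, as with all genes. Of the non-passing members with the highest levels, the noncoding hosts Snhg11 and Snhg14 had log2 fold changes of -0.14 ± 0.16 and 0.07 ± 0.16. The protein-coding hosts Eef2 and Atp5b had 0.06 ± 0.11 and 0.11 ± 0.11, and Pabpc1 had -0.30 ± 0.17. Nop56 and Nop58 had -0.11 ± 0.14 and 0.07 ± 0.16, and Smg1 and Upf1 had -0.17 ± 0.09 and 0.14 ± 0.12.

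Marker genes of several cell types differed between RIP and Input in the same libraries, and none of the markers was at 0 in any library. The summed level of 6 astrocyte markers was 9049 to 10486 CPM in CaMKIIβ RIP, 9787 to 11014 CPM in IgG RIP and 4607 to 4729.9 CPM in Input, and 6 of 6 rose in IgG RIP against Input. For 6 oligodendrocyte markers it was 10049 to 10314 CPM in CaMKIIβ RIP, 9452 to 10039.7 CPM in IgG RIP and 5567 to 5594 CPM in Input, and 4 rose and 2 fell in IgG RIP against Input. The 5 microglial markers summed to 81.2 to 116 CPM in CaMKIIβ RIP, 93.9 to 105 CPM in IgG RIP and 67.8 to 68.8 CPM in Input, and 2 rose and 1 fell in IgG RIP against Input. The 5 blood markers summed to 182 to 357 CPM in CaMKIIβ RIP, 160 to 178 CPM in IgG RIP and 310.1 to 312 CPM in Input, and 3 fell in IgG RIP against Input. The summed glial markers were thus higher in both RIP groups than in Input. So were the summed hippocampal and Purkinje cell markers given below, while the cerebellar granule cell and blood sums were not higher in both. The host gene sum was highest in Input. The part of these markers in the host gene results was not tested.

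The labelled tissue was checked against its markers. The 10 hippocampal markers summed to 1128 to 1463 CPM in CaMKIIβ RIP, 1393 to 1441 CPM in IgG RIP and 1019 to 1043 CPM in Input. Of these 10, 6 rose and 2 fell in IgG RIP against Input. The 8 cerebellar granule cell markers summed to 2439.9 to 2744 CPM in CaMKIIβ RIP, 2515 to 2605 CPM in IgG RIP and 2610.0 to 2633 CPM in Input. Of these 8, 2 rose and 2 fell in IgG RIP against Input. The 6 Purkinje cell markers, of the large output neurons of the cerebellum, summed to 7477 to 8621 CPM in CaMKIIβ RIP, 7537 to 7948 CPM in IgG RIP and 4211 to 4244 CPM in Input, but 3 of them rose and 3 fell in IgG RIP against Input, so the sum follows the strongest genes. Cerebellar markers were therefore abundant in all libraries labelled hippocampus.

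The genes whose pattern over the 8 libraries was most like the mean standardised profile of the host genes were sought among the 15347 genes whose log2 CPM averaged 1 or more. They were 0610010F05Rik (Pearson's r = 0.996), Tfrc (0.995), the transferrin receptor gene, Syt4 (0.994), a synaptotagmin gene, AI504432 (0.993) and Zfp788 (0.993). Over the 6 RIP libraries alone their r was 0.971 to 0.991. These values describe the 8 libraries, which share 3 groups and the gap between RIP and Input, and carry no p. The profile gave all 10 host genes equal weight, Snhg3 among them, although it had at most 1 count in any library.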

How the data were processed

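Libraries of 3 CaMKIIβ RIP, 3 IgG RIP and 2 Input samples were analysed as raw counts per gene, deposited by the authors and made, per the submitters' processing notes, on GRCm38.p6 with STAR 2.7.3a (alignment), featureCounts 2.0.1 (counting) and, for trimming, cutadapt 2.10 and Trim Galore 0.6.4. The annotation release and the settings for strand, duplicates and multimapping are not given in the sources used here. All 8 columns were mapped to samples by name. Symbols came from RefSeq genes (GRCm38.p6) sharing at least 0.5 of the joint span, on the same strand where known, as best mutual partner with no second partner at 0.8 of that share (34171 of 55401 genes, 96.2% of counts). This rule, like the naming of Snhg3 and Snhg5 by the only same-strand gene that holds the RefSeq span whole, was chosen after the table was seen; the other 8 host genes were named by shared span.

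The libraries of each comparison entered a fit of their own in edgeR 4.0.16 (R 4.3.3, quasi-likelihood test, robust, TMM, minimum count 10 and minimum total 15), adjusted by Benjamini-Hochberg over all genes tested with a threshold of 0.05; 9 of 10 host genes passed the count filter. Fold changes use the TMM scaling of the libraries compared. The members and gene lists were chosen with earlier results of these data known, so no list is independent evidence. Named genes were all host genes and, per list and comparison, up to 4 past the threshold with the smallest p and up to 2 others with the highest mean level. A gene that this rule would name is not reported here. By the span rule above no RefSeq match was made for the listed genes Snhg7, Snhg16, Hspa8, Eef1a1 and Cx3cr1, and Snhg9 did not pass the filter. Eef1b2, Eef2, Rack1, Tpt1, Dkc1 and Nop56 are on 2 lists each. Replicates of a group differed by more than counting noise (chi-square per degree of freedom 4.59 to 53.7), so none was merged. By this measure CaMKIIβ RIP replicate 1 was nearer to all IgG RIP libraries (7.66 to 11.2) than to CaMKIIβ RIP replicates 2 (43.6) and 3 (27.4). CaMKIIβ RIP replicate 3 was nearer to IgG RIP replicates 1 (22.4) and 2 (21.3) than to CaMKIIβ RIP replicate 1, but not to IgG RIP replicate 3 (30.8). Intervals of fold changes come from the same fits as the p-values, and so include the spread between these libraries, which may be technical. Limits of a count of 0 (3 counts) cover counting error only.

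Alternatives were scaling by library size, by RLE, by the upper quartile and by TMM with mitochondrial and structural RNA left out, other count filters, DESeq2 1.42.0, limma-voom (limma 3.58.1), 1 fit of all 8 libraries, the replicate block, removal of a loess trend on exon length (span 0.5), a span match of 0.8 and each library left out. The test was tested on simulated counts with 200 changed genes whose log2 CPM averaged 1 or more, and recovered 37.9% of 2-fold changes in CaMKIIβ RIP against IgG RIP, 32.8% in CaMKIIβ RIP against Input and 82.8% in IgG RIP against Input. These shares pool genes of all levels above that limit and are not the recovery at the levels of the host genes. In CaMKIIβ RIP against IgG RIP, Snhg6 and Snhg15 averaged log2 CPM of 0.84 and 0.36, below the simulated range. Tables and figures used Python 3.11.15, pandas 2.3.3 and matplotlib 3.10.9.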

Additional observations from a re-analysis of the deposited data

How the results depend on the processing

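Between CaMKIIβ RIP and IgG RIP the count of host genes past the threshold was 0 under all 18 alternatives. In CaMKIIβ RIP against Input it was 0, but 1 with DESeq2, 1 with limma-voom and 1 in the fit of all 8 libraries, in each case Gas5; leaving out single libraries gave 0 to 1, the 1 being Gas5 without CaMKIIβ RIP replicate 2. In IgG RIP against Input it was 5, but 9 when scaled by library size alone and 0 in the fit of all 8 libraries, and leaving out single libraries gave 1 to 8. Scaling by library size alone moved the median of all genes to -0.25 in IgG RIP against Input and to -0.29 in CaMKIIβ RIP against Input, so its lower values are partly that shift. Under that scaling 2714 genes were higher and 6345 lower in IgG RIP against Input (4483 and 4170 with TMM), and 683 higher and 1361 lower in CaMKIIβ RIP against Input (1117 and 751 with TMM). In CaMKIIβ RIP against Input removal of the length trend gave 1618 higher and 608 lower, and turned Snhg20 to 0.17, not past the threshold. The number of all genes called there was 1868, and 2866 with no count filter, 3448 with DESeq2, 3833 in the fit of all 8 libraries, 4205 with the replicate block and 0 to 4089 without single libraries; in IgG RIP against Input it was 8653, and 3676 in the fit of all 8 libraries and 5659 without Input replicate 2. The labels do not say whether same-numbered libraries are pairs. Correlations of their deviations were 0.00138, -0.0349 and -0.0977 between the antibodies, and 0.00763 to 0.115 with Input. The deviations of the 2 Input libraries mirror each other, so these values cannot settle the pairing. With the replicate block the host gene counts were 0 between the antibodies, 2 in CaMKIIβ RIP against Input (Gas5 and Snhg17) and 7 in IgG RIP against Input. No value past the threshold changed its direction. Counts of members of the 5 related lists moved by over 1.5 times in 29 of 85 list results of CaMKIIβ RIP against Input, among them all 5 lists without CaMKIIβ RIP replicate 1 (0 calls each), and in 9 of 85 of IgG RIP against Input. Nested small genes held 23 counts on the same strand and 79 on either strand, too few for a comparison.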
